A study of Mus musculus with 24 samples.

Results

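The regions described here are stretches of the N1E115 genome that carried the enhancer mark H3K4me1 in every library, lay under the repressive mark H3K27me3 in every library, and had no peak of the activity mark H3K27ac in any. H3K4me1 peaks of 4 libraries on chromosomes 1 to 19 were merged into 151106 regions, of which 34430 had a peak in all 4 libraries and are called stable. An H3K27me3 island overlapped 77 stable regions in all 4 H3K27me3 libraries, and 46 of these 77 had no H3K27ac peak in any of 4 H3K27ac libraries. These 46 regions, selected on the presence of H3K4me1, H3K27me3 and H3K27ac, are the members. The rule used only the presence of these 3 marks, so their presence is a description and not a finding, while the lengths of the H3K4me1 peaks, the H3K27me3 read density and the marks H3K4me3 and H3K36me3 were not used.

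N1E115 is a mouse neuroblastoma line, labelled NOS1+ in all samples, and all cells were cultured for 3 days. One group was kept at 4% O2, called hypoxia by the submitters, and the other at 20% O2. Chromatin immunoprecipitation (ChIP) was done for 5 histone marks, with 2 libraries for each mark at each oxygen level, which belong to set 1 and set 2 by the input they were compared with. Nothing in the labels says that the sets were separate cultures, so p-values measure the spread between these libraries, which may be technical. With 2 libraries against 2, the smallest two-sided exact permutation p is 0.33.

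H3K4me1 is laid down at enhancers, the distal elements that control genes, and H3K27ac is added when an enhancer is in use. H3K27me3 is written by Polycomb repressive complex 2 over silent developmental genes and opposes acetylation of the same lysine. An element with H3K4me1 and H3K27me3 but without H3K27ac is commonly called poised, a state known best from embryonic stem cells and early development.

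Promoter sequences are shown for 4 genes whose chromatin the results turn on: Lrrc74b and Plch2, whose promoter windows overlap a member, and Pax7 and Wnt6, whose members kept the most H3K4me1 in their lowest library. Each is the RefSeq window of 300 bases about the transcription start on GRCm38.p6, written 5′ to 3′ on the gene's strand, with every CG dinucleotide in capitals because CpG-rich promoters are where H3K27me3 and H3K4me3 commonly meet.
Lrrc74b, chr16:17561198-17561497, minus strand: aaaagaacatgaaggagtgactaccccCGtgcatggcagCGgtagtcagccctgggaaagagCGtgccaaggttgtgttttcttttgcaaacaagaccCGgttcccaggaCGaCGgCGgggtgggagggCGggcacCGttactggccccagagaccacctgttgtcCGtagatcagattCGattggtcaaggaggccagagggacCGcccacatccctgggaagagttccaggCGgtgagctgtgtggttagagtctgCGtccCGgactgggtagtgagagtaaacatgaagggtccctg
Plch2, chr4:155019379-155019678, minus strand: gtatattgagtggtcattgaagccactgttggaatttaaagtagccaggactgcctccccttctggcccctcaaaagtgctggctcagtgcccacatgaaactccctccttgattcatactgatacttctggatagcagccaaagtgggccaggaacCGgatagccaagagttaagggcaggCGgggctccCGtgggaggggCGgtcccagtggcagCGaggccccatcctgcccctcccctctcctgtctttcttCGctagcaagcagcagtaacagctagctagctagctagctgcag
Wnt6, chr1:74771642-74771941, plus strand: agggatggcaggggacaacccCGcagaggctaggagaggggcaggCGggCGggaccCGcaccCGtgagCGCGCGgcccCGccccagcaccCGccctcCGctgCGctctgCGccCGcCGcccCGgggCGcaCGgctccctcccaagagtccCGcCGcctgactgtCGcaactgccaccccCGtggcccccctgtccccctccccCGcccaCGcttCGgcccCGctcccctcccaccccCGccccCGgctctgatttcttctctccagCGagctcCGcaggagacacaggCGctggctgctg
Pax7, chr4:139832919-139833218, minus strand: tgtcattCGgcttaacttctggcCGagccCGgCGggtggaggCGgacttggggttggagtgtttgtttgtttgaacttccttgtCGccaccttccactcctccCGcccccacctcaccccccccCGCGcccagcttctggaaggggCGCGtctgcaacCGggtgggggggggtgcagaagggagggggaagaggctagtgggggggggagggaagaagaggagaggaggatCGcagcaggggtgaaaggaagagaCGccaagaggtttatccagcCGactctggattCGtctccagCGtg
These windows hold 15 CG dinucleotides in Lrrc74b, 6 in Plch2, 31 in Wnt6 and 17 in Pax7. The median over all 31396 promoter windows on chromosomes 1 to 19 was 7. The Plch2 window lay wholly inside its member, and the Lrrc74b window shared 42 bp with its member.

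The members were short islands of H3K4me1 inside much longer H3K27me3 domains. Their merged length ran between 419 bp next to Tnfaip8l1 and 8268 bp in Pax7, with a median of 1628 bp, against 1954 bp over the 34384 other stable regions. H3K27me3 islands covered 98.1% and 97.3% of the summed member length in the 4% O2 libraries, against 81.8% and 91.8% at 20% O2. Set 1 is given before set 2 here and throughout. Coverage was thus higher in both 4% O2 libraries than in either 20% O2 library (97.7 ± 0.561% against 86.8 ± 7.09%, SD, n = 2 each). The rule asked for some H3K27me3 in each of these libraries, so this coverage is a description without a test. Over all chromosomes, islands covered 361 and 354 Mb at 4% O2, against 312 and 369 Mb at 20% O2. The H3K27me3 libraries of set 1 were on a different flow cell at each oxygen level, per the file headers. Members wholly covered numbered 40 and 42 at 4% O2 and 28 and 34 at 20% O2, and 20 members were wholly covered in all 4 libraries.

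**Figure D1:**
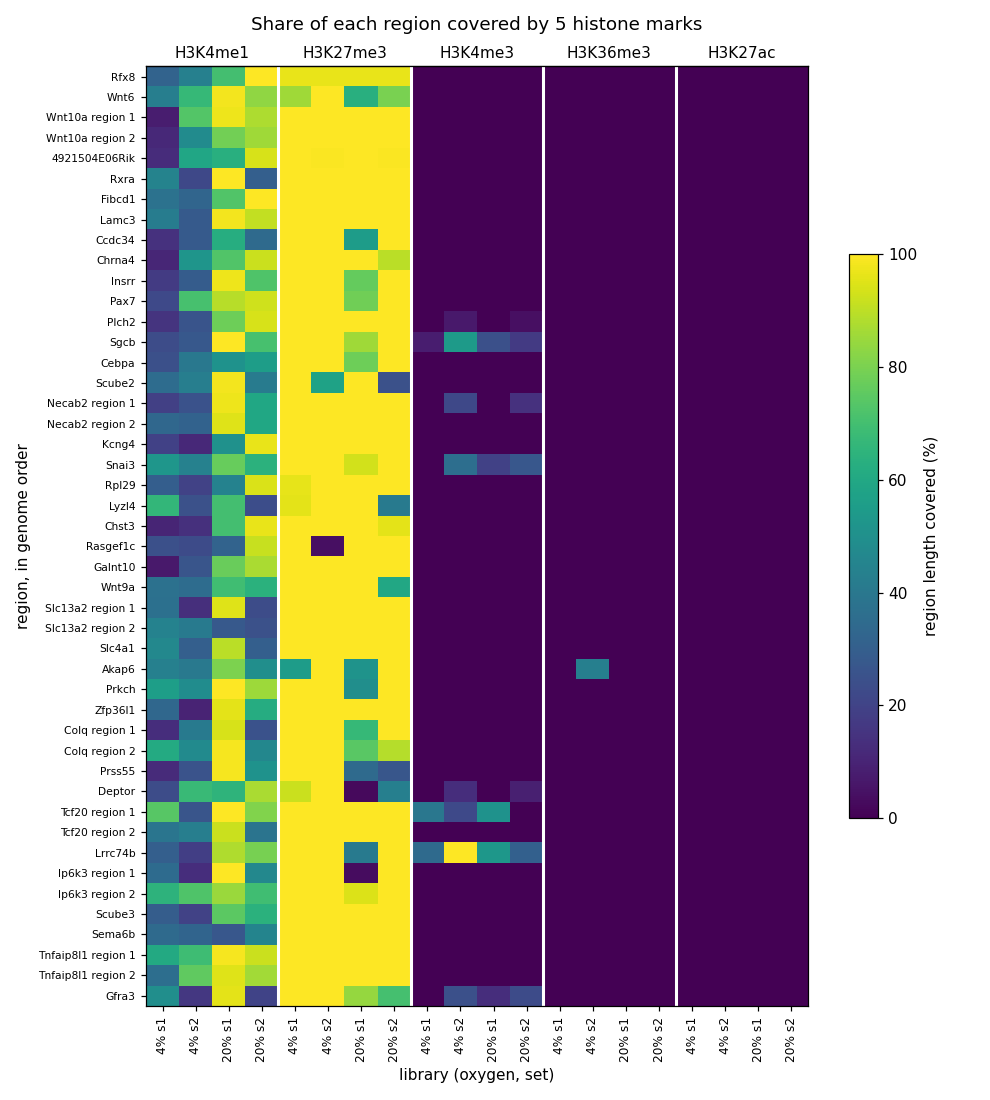
Share of each member's length (%, colour) covered by peaks or islands of 5 histone marks; rows are the 46 members in genome order, and columns are the libraries, with 4% O2 left of 20% O2 within each mark (s1, set 1; s2, set 2). H3K4me1 covers less of most members at 4% O2, H3K27me3 covers nearly all of most members, H3K4me3 appears in 8 members, H3K36me3 in 1 and H3K27ac, by the rule, in none.

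Some members met the rule narrowly. The member 21936 bp from Deptor had 90 bp of its 3681 bp under H3K27me3 in the 20% O2 library of set 1, which is 2.44% and the lowest share of any member. Rasgef1c had 85 bp of 2127 bp covered in the 4% O2 library of set 2, and Ip6k3 region 1 had 77 bp of 2346 bp covered in the 20% O2 library of set 1. Just outside the rule lay 33 stable regions without H3K27ac that had H3K27me3 in 3 of 4 libraries, and 31 regions with H3K27me3 in all 4 but H3K27ac in at least 1. At least 50% of the member was covered in all 4 libraries in 38 of the 46.

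H3K4me1 covered less of the members at 4% O2 than at 20% O2 in both sets. Summed over the members, H3K4me1 peaks covered 24322 and 34256 bp at 4% O2, against 70743 and 62600 bp at 20% O2. Both 4% O2 libraries lay below both 20% O2 libraries, at 29.3 ± 7.02 kb against 66.7 ± 5.76 kb (SD, n = 2 each; log2 ratio −1.19; two-sided exact permutation p = 0.33, the smallest this design allows). The ratio of 4% to 20% O2 was 0.344 in set 1 and 0.547 in set 2. Over all stable regions the same ratios were 0.697 and 0.835, so H3K4me1 length was lower there too, by less. Relative to all stable regions, members held 0.477 and 0.675 bp of every 1000 bp at 4% O2, against 0.967 and 1.03 bp at 20% O2, a log2 ratio of −0.79 (two-sided exact permutation p = 0.33). The H3K4me1 libraries of a set were sequenced on 1 flow cell for both oxygen levels, per the file headers.

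The median member had 417 and 427.5 bp of H3K4me1 peak at 4% O2, against 1317 and 933 bp at 20% O2. The rule asked for a peak in each library, so no length could be 0, and the shortest was 187 bp. By the lowest score percentile of the 4 libraries, 25 members lay in the lowest of 4 equal bins of stable regions. H3K4me1 was shorter at 4% O2 in 44 of 46 members in set 1, against 87.4% of all stable regions, and in 38 of 46 in set 2, against 71.3%. In 33 of 46 members (71.7%) both 4% O2 libraries lay below both 20% O2 libraries, where the share among all stable regions was 46.9%. The opposite order was found in 1 member, against 2.36% of all stable regions. The shorter peaks at 4% O2 lay mostly inside the longer ones: 87.3% and 79.8% of the peak length at 4% O2 fell within peaks of the 20% O2 library of the same set. In the other direction, 30.0% and 43.7% of the length at 20% O2 was still covered at 4% O2, against 63.7% and 68.3% over all stable regions. Peak scores had the same order: the median member's best peak stood at the 38.6th and 50.4th percentile of its library's peaks at 4% O2, against the 73.6th and 70.9th at 20% O2. All stable regions had medians at the 73.8th and 75.4th percentile at 4% O2, and the 83.5th and 80.2nd at 20% O2.

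**Figure D2:**
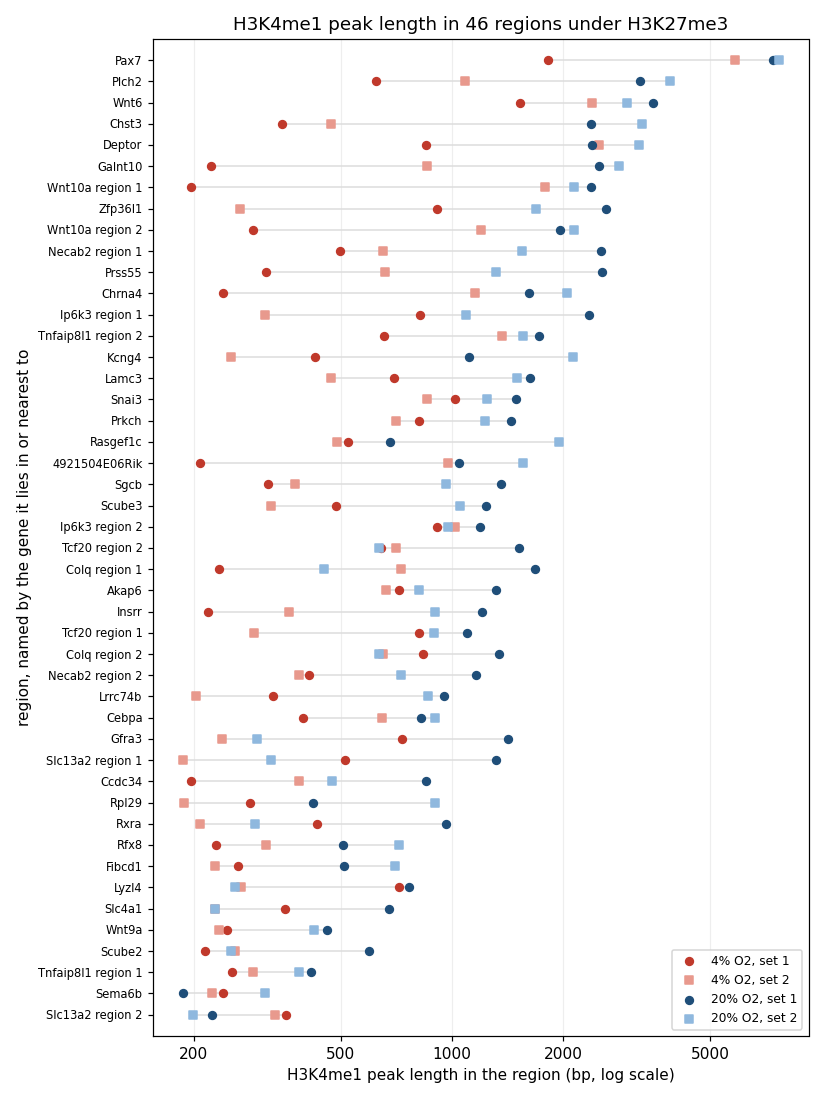
H3K4me1 peak length (bp, log axis) in each of the 46 members, 1 point for each library (red, 4% O2; blue, 20% O2; circles, set 1; squares, set 2), ordered by the mean at 20% O2. The red points lie left of both blue points in 33 members, and Slc13a2 region 2 at the bottom is the member with the opposite order.

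Tested region by region with limma across all 34430 stable regions, no member passed a Benjamini-Hochberg adjusted p of 0.05 in either direction, and neither did any other stable region (0% called lower, 0% called higher; lowest adjusted p 0.337). At an unadjusted p under 0.05, 17 members were lower and 0 higher, against 11.7% lower and 0.293% higher among all stable regions. The median log2 difference was −1.18 over the members and −0.43 over all stable regions. When each library's lengths were centred on its own median, the medians were −0.63 over the members and 0.11 over all stable regions. After this centring 10 members were lower and 1 higher at an unadjusted p under 0.05, against 3.89% and 2.21% of all stable regions, and again no region passed the adjusted threshold.

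The 6 members with the most H3K4me1 in their lowest library lay in Pax7, Wnt6, Ip6k3, Snai3 and Prkch and near Deptor. The member in Pax7, a paired-box transcription factor of neural crest and muscle progenitors, lay at chr4:139790381-139798648 (mm10), 34320 bp downstream of the transcription start in the promoter window printed above. Its H3K4me1 peaks covered 1816 and 5861 bp at 4% O2, against 7390 and 7677 bp at 20% O2 (log2 difference −1.21). Both values at 4% O2 were the lower ones, and the 4% O2 libraries differed from each other more than the 20% O2 libraries did. Without the 4% O2 library of set 1 the difference was −0.36, and without that of set 2 it was −2.05. In Wnt6, which encodes a secreted WNT ligand, the member spanned chr1:74767086-74770656, ahead of the promoter window. It had 1528 and 2392 bp at 4% O2, against 3510 and 2978 bp at 20% O2, with no overlap between the groups. Snai3, a zinc finger protein of the Snail family, had 1017 and 855 bp at 4% O2, against 1491 and 1248 bp at 20% O2, again without overlap. In Prkch, the gene of protein kinase C eta, the values were 813 and 704 bp at 4% O2, against 1446 and 1232 bp at 20% O2, also without overlap. The log2 difference was −0.76 in Wnt6, −0.55 in Snai3 and −0.82 in Prkch. With lengths centred on each library's median it was −0.21 in Wnt6, −0.00071 in Snai3, −0.27 in Prkch and −0.66 in Pax7.

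In the other 2 of these 6 members the oxygen levels overlapped. The member near Deptor, which encodes an inhibitor of the growth kinase mTOR, had 850 and 2497 bp at 4% O2, against 2396 and 3209 bp at 20% O2. Ip6k3 region 2, in the gene of an inositol hexakisphosphate kinase, had 911 and 1020 bp at 4% O2, against 1194 and 977 bp at 20% O2. In both, 1 library at 4% O2 lay above the lower library at 20% O2. The difference in Ip6k3 region 2 was −0.16 on the log2 scale and became 0.38 when lengths were centred on each library's median.

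The members that separated most, chosen for that difference and therefore given without a test, were in Chst3, Plch2, Galnt10, Lrrc74b and Kcng4. In Chst3, a chondroitin sulfotransferase of the extracellular matrix, H3K4me1 covered 347 and 469 bp at 4% O2, against 2377 and 3282 bp at 20% O2. The Plch2 member, inside a phospholipase C gene and over one of its 2 promoter windows in the table, had 623 and 1084 bp at 4% O2, against 3238 and 3907 bp at 20% O2. Inside the printed Plch2 promoter window itself, H3K4me1 covered 190 and 0 bp at 4% O2, against 251 and 300 bp at 20% O2. Galnt10 encodes an enzyme that starts mucin-type O-glycosylation, and its member had 222 and 858 bp at 4% O2, against 2504 and 2833 bp at 20% O2. Lrrc74b, a leucine-rich repeat gene, had 327 and 203 bp at 4% O2, against 952 and 863 bp at 20% O2. Kcng4, a modifying subunit of voltage-gated potassium channels, had 425 and 252 bp at 4% O2, against 1112 and 2127 bp at 20% O2. The oxygen levels do not overlap in any of these 5, as the choice fixed.

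The only member with longer H3K4me1 in both 4% O2 libraries than in both 20% O2 libraries was region 2 of Slc13a2, the gene of a sodium-coupled dicarboxylate transporter. It had 356 and 332 bp at 4% O2, against 224 and 199 bp at 20% O2. These were low-scored peaks, at percentiles of 6.51 and 40.0 in the 4% O2 libraries, and 24.6 and 9.16 at 20% O2. The neighbouring region 1 of the same gene had 512 and 187 bp at 4% O2, against 1317 and 324 bp at 20% O2, which is the opposite order in both sets.

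Stable regions under H3K27me3 had low ratios of H3K4me1 length with and without H3K27ac. The 31 stable regions with H3K27me3 in all 4 libraries and H3K27ac in at least 1 had ratios of 4% to 20% O2 of 0.411 and 0.507, close to those of the members. The 5917 stable regions with neither mark in any library had ratios of 0.671 and 0.885, and the 18348 with H3K27ac in all 4 had 0.706 and 0.828. Among stable regions without H3K27ac, both sets together gave a ratio of 0.769 with H3K27me3 in no library, 0.580 in 1, 0.537 in 2, 0.513 in 3 and 0.439 in 4, where the last are the members. In the same order the ratios were 0.671, 0.508, 0.504, 0.408 and 0.344 in set 1. In set 2 they were 0.885, 0.660, 0.573, 0.640 and 0.547, so the decline was not steady there. The classes with H3K27me3 in 1, 2 and 3 libraries held 69, 57 and 33 regions. These classes were compared by their ratios alone, with no test of the order.

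**Figure D3:**
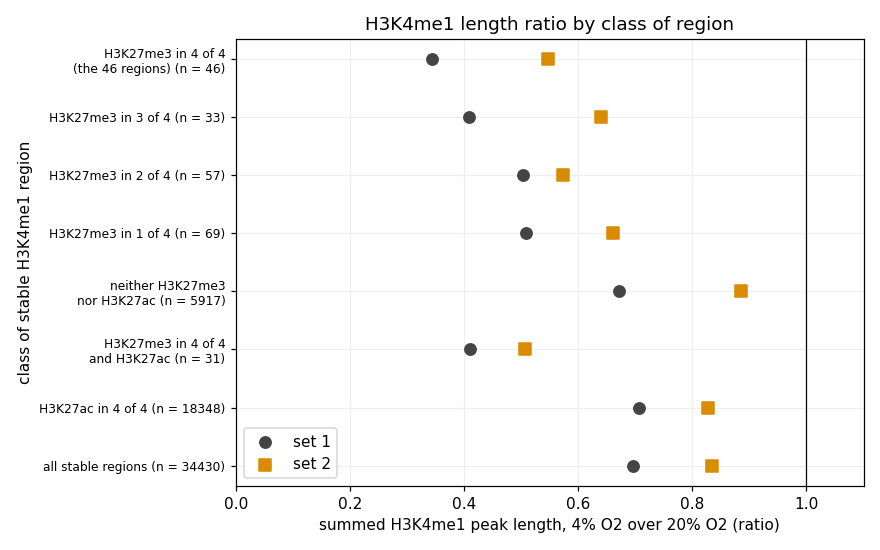
Summed H3K4me1 peak length at 4% O2 over that at 20% O2 (ratio, x axis) for classes of stable H3K4me1 region (y axis), 1 point for each set, with a line at 1. The 3 classes of all regions, of H3K27ac regions and of regions with neither mark lie between 0.671 and 0.885, and the classes with H3K27me3 lie to their left.

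Length and peak score at 20% O2 differed between members and other regions, and the ratios were also taken within 4 equal bins of the stable regions on each measure. In the bin with the lowest scores at 20% O2, 16 members had ratios of 0.432 and 0.563, against 0.678 and 0.900 over the other regions. In the bin with the highest scores, 4 members had 0.355 and 0.651, against 0.762 and 0.865. In the bin of shortest regions, 15 members had 0.528 and 0.498, against 0.666 and 0.808, and in that of the longest regions 6 members had 0.252 and 0.551, against 0.750 and 0.869. The members' ratio was the lower one in both sets in these bins and in the bins between them. The classes came closest in set 2 among regions of 1312 to 1953 bp. There, 16 members had 0.438 and 0.705, against 0.617 and 0.772. The median log2 difference of set 2 in that bin was −0.39 for members and −0.38 for the other regions.

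H3K4me1 peaks missing altogether at 4% O2 were also counted. Before stability was required, 2016 merged H3K4me1 regions had H3K27me3 in all 4 libraries and no H3K27ac. Of these 2016, 217 (10.8%) had an H3K4me1 peak in both 20% O2 libraries and in neither 4% O2 library, while 1 (0.0496%) had the reverse pattern. Over all 151106 merged regions the counts were 9413 (6.23%) and 1218 (0.806%). A peak was missing only in the 4% O2 library of set 2 in 72 of the 2016 (3.57%, against 4.12% of all merged regions). It was missing only in that of set 1 in 49 (2.43%, against 4.42%). Peaks in a single 20% O2 library made up 36.7% (set 1) and 33.0% (set 2) of the 2016, against 21.5% and 12.3% of all. Regions with a peak in all 4 libraries made up 2.28%, against 22.8%. These shares depend on that base, and loss among regions with both 20% O2 peaks was not compared. Regions that lost the peak entirely at 4% O2 cannot be members, and neither can those that lost it in 1 library. The members are the part of this group with a peak left in all 4 libraries.

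The members sat in 36 H3K27me3 regions, here islands of all 4 libraries merged, which had a median length of 53999 bp against 20799 bp over all 9925 regions found in all 4 libraries. They ran between 12999 bp around Sgcb and 290999 bp at Rxra, and 8 of them held 2 or 3 members. Island reads per kb in them were 36.8 and 44.2 at 4% O2, against 38.7 and 47.9 at 20% O2. Over all regions the values were 24.4 and 29.5 at 4% O2, against 29.7 and 34.9 at 20% O2. Unscaled read density was therefore lower at 4% O2 in both sets, in the regions with members by less than in all regions. As a ratio to all regions it was 1.51 and 1.50 at 4% O2, against 1.30 and 1.37 at 20% O2 (two-sided exact permutation p = 0.33). Island reads on chromosomes 1 to 19, which set the scale of the test below, numbered 7965858 and 9799332 at 4% O2, and 8616970 and 11964743 at 20% O2.

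edgeR's quasi-likelihood test on the island reads, scaled to each library's island total and to the length covered, called none of the 36 regions and none of the 9925 at a Benjamini-Hochberg adjusted p of 0.05 (0% higher, 0% lower). At an unadjusted p under 0.05, 5 of the 36 were higher and 1 lower, against 2.15% and 1.96% of all regions. The log2 difference was above 0 in 32 of the 36 and in 38.2% of all regions, with a median of 0.22 against −0.05 over all regions. In both sets separately, 28 of the 36 were higher at 4% O2, which is 77.8%, against 18.6% of all regions. In the longest of 4 equal bins of regions by length, 21 of 23 with members were higher, against 27.9% of the others. In set 1 the H3K27me3 libraries of the 2 oxygen levels were run on different flow cells, so oxygen and flow cell cannot be told apart there; in set 2 both were on the same one, and the median log2 difference of the 36 was 0.15 in set 1 and 0.32 in set 2, against −0.18 and 0.08 over the other 9889 regions. DESeq2, run on the island reads without the length offset, called 2 of the 36 higher and 0 lower at an adjusted p of 0.05, against 0.171% and 0.0202% of all regions. With the set as a replicate block, edgeR called 3 of the 36 higher and 1 lower, against 0.181% and 0.635% of all regions. The labels do not say that a set is a shared culture.

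**Figure D4:**
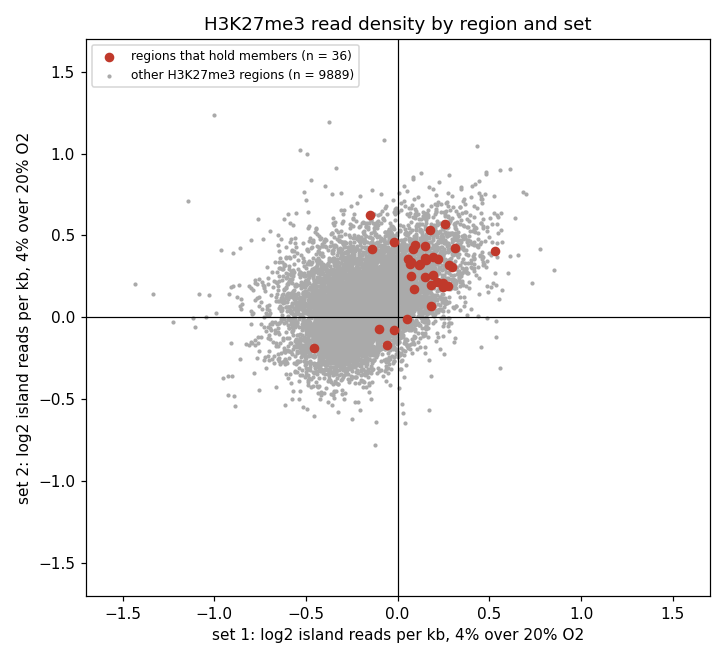
Log2 ratio of H3K27me3 island reads per kb, scaled to each library's island reads, at 4% over 20% O2 in set 1 (x axis) and set 2 (y axis); each point is an H3K27me3 region, red where it holds members (n = 36) and grey otherwise (n = 9889). Of the red points, 28 lie in the upper right field, higher in both sets, and Prkch is the red point farthest to the lower left.

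Ranked by p, the regions with higher density held Lrrc74b, the Ip6k3 pair, Fibcd1 with Lamc3, Zfp36l1, and Sema6b with Tnfaip8l1. They were chosen for their small p, and each had an adjusted p of 0.999 in edgeR without the replicate block. Around Lrrc74b the density was 42.4 and 67.5 reads per kb at 4% O2, against 38.3 and 55.4 at 20% O2, a scaled log2 difference of 0.43. The region of the Ip6k3 pair had 37.0 and 45.0 reads per kb at 4% O2, against 27.7 and 41.5 at 20% O2 (0.46). Fibcd1, an acetyl-group-binding receptor, and Lamc3, a laminin chain, share a region with 39.3 and 50.4 reads per kb at 4% O2, against 34.3 and 45.9 at 20% O2 (0.37). Unscaled densities overlapped between the oxygen levels around Lrrc74b, the Ip6k3 pair and Fibcd1 with Lamc3, and scaled densities did not. Near Zfp36l1, an RNA-binding protein of messenger decay, the scaled difference was 0.30, and between Sema6b, a semaphorin of axon guidance, and Tnfaip8l1 it was 0.36.

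The differences below 0 were at Prkch, Rxra, Galnt10 and Cebpa. Prkch stood apart with 35.97 and 36.7 reads per kb at 4% O2, against 53.4 and 51.1 at 20% O2, a scaled log2 difference of −0.34 with an adjusted p of 0.999 in edgeR. In edgeR with the set as a replicate block, the adjusted p for Prkch was 0.00163. Both unscaled values at 4% O2 were below both at 20% O2. Scaled, they were 4.52 and 3.75 reads per kb and 1000000 island reads at 4% O2, against 6.20 and 4.27 at 20% O2, lower within each set but overlapping between the groups. Rxra, the nuclear receptor that binds retinoids, Galnt10, and Cebpa, a transcription factor of liver, fat and blood cells, had differences of −0.09, −0.11 and −0.05.

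The H3K27me3 region over Wnt6 and Wnt10a at chr1:74758001-74813799, held 3 members. Islands covered 53198 and 44798 bp of it at 4% O2, against 25997 and 26598 bp at 20% O2. Its density was 33.8 and 43.7 reads per kb at 4% O2, against 32.0 and 44.6 at 20% O2. Unscaled density overlapped between the oxygen levels. Scaled to each library's island reads it was 4.25 and 4.46 reads per kb and 1000000 island reads at 4% O2, against 3.71 and 3.73 at 20% O2, without overlap and with a log2 difference of 0.23. Over the 36 regions together, the islands covered 2271 and 2217 kb at 4% O2, against 1914 and 2111 kb at 20% O2. Over all 9925 regions they covered 298684 and 301427 kb at 4% O2, against 270516 and 316806 kb at 20% O2, which is more at 4% O2 in set 1 and less in set 2. In the same region, regions 1 and 2 of H3K4me1 at Wnt10a, another secreted WNT ligand, had 197 and 1792 bp and 290 and 1202 bp at 4% O2. At 20% O2 they had 2388 and 2146 bp and 1962 and 2138 bp, so both were shorter in each 4% O2 library.

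Few members carried the promoter mark H3K4me3, and the number did not separate by oxygen. H3K4me3 peaks were found in 3 and 8 of 46 members at 4% O2, and in 5 and 7 at 20% O2 (11.96 ± 7.69% against 13.0 ± 3.07%, SD, n = 2 each; two-sided exact permutation p = 1). In 38 members no library had one. The member in Lrrc74b had 373 and 1083 bp of H3K4me3 at 4% O2, against 572 and 333 bp at 20% O2. The member just ahead of Sgcb, the gene of beta-sarcoglycan, had 111 and 742 bp at 4% O2, against 331 and 229 bp at 20% O2. These were the 2 members with H3K4me3 in all 4 libraries, and in both the oxygen levels overlapped. H3K4me1 in the Sgcb member was 317 and 375 bp at 4% O2, against 1359 and 964 bp at 20% O2, without overlap. This member lay 472 bp from the Sgcb transcription start. The Sgcb promoter window had H3K4me3 in all 4 libraries, and H3K27me3 and H3K27ac in 1 library each. H3K36me3 covered at least 25% of the Sgcb record in all 4 libraries.

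H3K36me3, which marks the bodies of transcribed genes, covered 1 member in 1 library, at 4% O2 in Akap6, a kinase-anchoring protein. The counts were 0 and 1 of 46 members at 4% O2, and 0 and 0 at 20% O2; a count of 0 in a list of islands gives no limit on the share. Of the 5917 stable regions with neither H3K27me3 nor H3K27ac, 25.7% and 28.9% had an H3K36me3 island at 4% O2, and 28.2% and 29.6% at 20% O2. The members were lower in all 4 libraries (two-sided exact sign-flip permutation over 4 libraries, p = 0.13, the smallest possible). Members were selected for H3K27me3 and those 5917 regions for its absence, so the comparison cannot separate H3K36me3 from that choice. H3K4me3 was found at 6.39% and 9.01% of those regions at 4% O2 and at 8.13% and 8.33% at 20% O2, against 6.52% and 17.4%, and 10.9% and 15.2%, of the members (p = 0.13 by the same exact test). Over all other stable regions the H3K4me3 shares were higher, at 32.8% and 38.9% at 4% O2 and 35.8% and 35.0% at 20% O2. Among regions with a measured distance, a transcription start lay within 2500 bp of 15.6% of members and 7.24% of regions with neither mark. That share was 12.6% over all other stable regions.

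By position, 30 of the 46 members (65.2%) overlapped the record of a protein-coding gene, close to the 60.7% of other stable regions. The median distance to the nearest end of such a record was 9302 bp for members and 25794 bp for the others. Protein-coding genes with 2 members inside or within 10000 bp were Colq, Ip6k3, Necab2, Slc13a2, Tcf20, Tnfaip8l1, Wnt10a and Wnt6, and no gene had more. Colq encodes the collagen tail that anchors acetylcholinesterase, Necab2 a neuronal calcium-binding protein and Tcf20 a transcriptional coregulator. In Colq, region 1 had 234 and 729 bp of H3K4me1 at 4% O2, against 1681 and 450 bp at 20% O2, and the order differed between the sets. Necab2 region 1 had 496 and 652 bp at 4% O2, against 2527 and 1545 bp at 20% O2, without overlap. No member held a miRNA hairpin of the RefSeq table.

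Members lay in or within 10000 bp of 34 of 20661 protein-coding genes (0.165%), and few of these were on the 16 gene lists examined. Of 61 WNT, BMP, FGF and Hedgehog ligands and antagonists, 3 had a member (4.92%): Wnt6, Wnt9a and Wnt10a. Wnt6 and Wnt10a are neighbours in 1 H3K27me3 region and Wnt10a region 1 counts for both, so they are not separate cases. The 0.165% is over all protein-coding genes, with or without H3K27me3, and no preference for a list was tested. Of 151 developmental transcription factors, Pax7 was the only one (0.662%). No member lay near any gene of the other 14 lists, among them 39 Hox genes, 40 hypoxia response genes, 28 genes of noradrenergic neuroblastoma identity, 39 neuronal ion channels, 49 axon guidance genes and 34 Polycomb genes. With 0.165% of all protein-coding genes near a member, a list of this size would mostly hold none, so this absence is a description. These lists are partial: Sema6b, Kcng4 and Chrna4, a nicotinic receptor subunit, have a member in or within 10000 bp of them and are on none of the lists. Nos1, the neuronal nitric oxide synthase, is on chromosome 5 and its nearest member lay 44217 kb away. The Wnt9a member had 246 and 234 bp of H3K4me1 at 4% O2, against 460 and 424 bp at 20% O2, without overlap.

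Genes that held a member were then described by the marks at their promoters. Of 25 such genes, 19 had a promoter window in the RefSeq table. H3K27me3 overlapped the window in all 4 libraries in 9 of the 19 (47.4%), against 8.47% of 16456 protein-coding genes. H3K27ac was there in all 4 libraries in 1 of the 19 (5.26%, against 36.3%), and H3K36me3 covered at least 25% of the gene record in 1 (5.26%, against 40.4%). H3K27me3 and H3K27ac at the members were fixed by the rule, and a promoter can lie in the same domain as its member, so the first 2 counts are descriptions. H3K4me3 was at the window in all 4 libraries in 5 of the 19 (26.3%, against 54.2%), which were Wnt6, Wnt9a, Tcf20, Lrrc74b and Akap6. Genes that a member lay in or nearest to numbered 39, of which 27 had a window. Among these 27 the shares were 37.0% for H3K27me3, 14.8% for H3K27ac, 14.8% for H3K36me3 and 37.0% for H3K4me3. Sema6b and Tnfaip8l1, which have a member near them, had H3K4me3, H3K27ac and H3K36me3 by these measures in all 4 libraries.

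At the printed Lrrc74b promoter, H3K4me3 covered 300 and 246 of 300 bp at 4% O2, and 300 and 300 bp at 20% O2. H3K27me3 covered 300 and 300 bp of it at 4% O2, against 97 and 300 bp at 20% O2, and H3K27ac covered none in any library. The printed Wnt6 promoter had 259 and 300 bp of H3K4me3 at 4% O2, and 300 and 300 bp at 20% O2. Its H3K27me3 was 300 and 300 bp at 4% O2, against 0 and 300 bp at 20% O2. The printed Pax7 promoter had no H3K4me3 in any library, and H3K27me3 covered 0 and 218 bp of it at 4% O2, against 300 and 300 bp at 20% O2. At this promoter H3K27me3 was shorter at 4% O2, although the Pax7 member itself was wholly covered in both 4% O2 libraries.

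As a check of the cell type, H3K4me3 and H3K27ac were both present in all 4 libraries at 9 of 10 promoters of neuroblastoma identity genes, among them Phox2a, Hand2, Gata3, Th and Dbh. They were so at 0 of 3 glial, 0 of 4 immune and 0 of 3 endothelial marker promoters.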

How the data were processed

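The authors made ChIP-seq libraries for 5 histone marks, aligned them with BWA to mm10 and used Picard and SICER, per the submitters' processing notes, which give no versions. Peaks of H3K4me1, H3K4me3 and H3K27ac were called with MACS2 for each library, per the file headers. The deposited score of each such peak has the layout of a −log10 q value, and the deposited H3K27me3 and H3K36me3 islands carry read counts. The depth behind the peaks is unknown, and island totals for H3K27me3 ran between 8479517 and 12228541 reads over all chromosomes. Of 24 samples, 4 were inputs not analysed here. Samples were grouped by their titles.

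Marks were overlapped by at least 1 bp on chromosomes 1 to 19. A region's H3K4me1 value is the peak length in it, a measure that moves with the peak threshold and not a read level. log2 lengths were tested with limma 3.58.1 and island counts with edgeR 4.0.16 (regions with a mean of at least 20 reads, offsets for island total and covered length), over all regions, and both fits were tested on simulated data. DESeq2 1.42.0 was an alternative. Single values were tested by exact permutation in scipy 1.17.1. Gene records, promoters and sequences are from RefSeq, GRCm38.p6, whose main chromosomes share mm10 coordinates; 585 of 597 list entries matched. Regions are named for the protein-coding gene they lie in or nearest to.

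The members and lists were chosen with earlier results of these data known. Regions were named by fixed ranks: widest H3K4me1, H3K4me3 in all 4 libraries, largest separation by oxygen, smallest p for H3K27me3 density, most members for a gene; others were named after their values were seen. The planned sequences of the members themselves were not used, as promoter windows were the sequences at hand.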

Additional observations from a re-analysis of the deposited data

How the results depend on the processing

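The number of members depended on the H3K4me1 peak list. With peaks of a score of at least 5 there were 18 members, and leaving out 1 library of a mark in turn gave 46 to 118, the highest without the 4% O2 H3K4me1 library of set 2 and 95 without that of set 1. Asking for 50% H3K27me3 coverage left 38, and a margin of 1000 bp to H3K27ac left 43. The log2 ratio of H3K4me1 length over members, −1.19, ran between −1.45 and −0.96 when 1 library was left out, and was −1.52 with the score minimum, −1.17 with equal numbers of top-scored peaks, and −1.21 as the mean within sets. Chosen after seeing the data, it was −1.39 over the 20 wholly covered members and −1.25 without the 4 members at Wnt6, Wnt10a and Pax7. Among the members named for H3K4me1 length or H3K4me3, the score minimum left no value for Sgcb, Chst3, Plch2, Galnt10 and Slc13a2 region 2. These had no such peak in at least 1 library. Other members lacked one too, as only 18 met the rule with the score minimum. The −1.52 is from sums over all 46 members, with a missing peak taken as 0 bp. The limma count of called members was 0 under each alternative run, including the replicate block. Ip6k3 region 2 turned from −0.16 to 0.023 with equal numbers of peaks and to 0.38 with centring.

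For H3K27me3 density, DESeq2 without the length offset called 2 of the 36 regions higher, and leaving out 1 library called 0 to 1 higher, the 1 without the 20% O2 library of set 1, where 0.947% of all regions were called higher. With the set as a replicate block in edgeR, 3 were called higher (Lrrc74b, Fibcd1 with Lamc3, and Zfp36l1; 0.181% of all regions) and 1 lower (Prkch, adjusted p 0.00163; 0.635% of all regions); the labels do not say that a set is a shared culture, and the correlation of deviations within sets was 0.415 for H3K27me3 and 0.320 for H3K4me1. The difference in the share of members with H3K4me3, −1.09 percentage points, ran between −6.52 and 4.35 when 1 library was left out, being 4.35 without the 4% O2 library of set 1 and 1.09 without the 20% O2 library of set 2, and was 0 with the score minimum. The causes of these changes were not tested. The depth behind the peaks is unknown, and whether and how far a peak was called can depend on it.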
